A study of Ovis aries with 49 samples.

Results

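At most SNPs that tell a father's allele from a mother's in a cross, every father carries the same base, so a base with more reads and a parent with more reads cannot be told apart. The autosomal SNPs described here are those at which the rams passed on either base. Each was informative in 2 to 9 of 15 sheep fetuses, carried the reference base from the ram in at least 1 of them and the alternative base in at least 1 other, and was listed for unequal allele reads in at least 1 fetal library. There were 1692 of them in 947 genes, out of 146487 informative SNPs, of which 19117 were listed in any library.

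Both copies of an autosomal gene are usually read. Unequal reading can follow the sequence of the copy, as with a variant in a promoter, splice site or transcript (a cis effect), in which case the same base is higher whichever parent gave it. It can also follow the parent of origin, as in genomic imprinting, where marks set in the germ line silence the maternal or the paternal copy, and then the higher base changes with the parent who gave it.

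The fetuses came from 12 Western white-faced ewes mated with 4 Dorset rams. From day 30 of gestation the ewes received 100% (control), 60% (restricted) or 140% (overfed) of the total digestible nutrients advised for ewes carrying twins, with 4 ewes on each diet. At day 135, RNA from the brain, kidney and lung of 7 control, 4 restricted and 4 overfed fetuses was sequenced, giving 45 libraries, and blood DNA of the rams gave the paternal genotypes. The ewe numbers in the labels put 3 control fetuses with 1 ewe and 2 with another, and each other fetus with a ewe of its own. The labels also count 3 twin pairs among the 7 control fetuses, which conflicts with those ewe numbers, so every value below that uses litters or control ewes depends on the numbers being right. The 4 rams sired 2, 1, 5 and 7 of the fetuses, called rams 1 to 4 here. Each ram was homozygous at the SNPs in its list, so the paternal base of a fetus at a SNP was fixed by its ram, and a comparison of paternal bases at 1 SNP is also a comparison of rams.

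Each fetal list holds reads of the paternal and of the maternal base, and only entries with at least 20.5 reads and at least 70% of them on 1 allele. An entry is 1 SNP in 1 library. SNPs read evenly are therefore not in the lists, every share lies far from 50%, and the counts below concern which allele was higher, not how many SNPs were uneven. The lists hold no expression levels, so the tissue labels were not checked against marker levels. A library's list held between 6530.5 and 194732 reads over all its SNPs, and between 396.5 and 6828 over the SNPs described here. No pair of libraries of 1 tissue shared more than 3.45% of identical entries.

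Of 9384 SNPs that met the genotype rule, 18% were listed in some library, beside 14.9% of the 81317 autosomal SNPs that were informative in 2 to 9 fetuses but inherited 1 way only. Those one-way SNPs are the comparison set below. In single libraries the order was the other way: the mean share of a fetus's informative SNPs that was listed was 1.5% ± 0.49 in brain, 1.82% ± 0.68 for kidneys and 2.38% ± 0.65 for lungs (SD, n = 15), beside 1.71% ± 0.52, 2.07% ± 0.84 and 2.86% ± 0.73 for one-way SNPs. The share was higher for the SNPs inherited either way in 4, 4 and 1 of the 15 fetuses, and this difference was not tested. Of the 1692 SNPs, 996 were seen in the genotypes from 2 rams, 611 from 3 and 85 from all 4, and the median SNP was informative in 6 fetuses. Transitions made up 80.1% of them and 76.8% of the one-way SNPs.

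The 1692 SNPs gave 2644 entries: 697 in brain (539 SNPs in 370 genes), 831 in kidney (669 SNPs, 421 genes) and 1116 in lung (843 SNPs, 526 genes). The median entry rested on 29, 29.5 and 30.5 reads. Most SNPs, 1293 or 76.4%, were listed in 1 fetus only and cannot separate base from parent. Another 171 were listed in several fetuses with 1 paternal base, and 55 with both paternal bases but only in different tissues. The remaining 173 SNPs, in 114 genes, were listed with both paternal bases in the same tissue, which gave 219 cases of a SNP in a tissue.

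In these 219 cases the higher allele followed the base in 201 and the parent in 18. A case followed the base when the same base was higher in every listed fetus, and the parent when the same parent's allele was. Counting each fetus once per case, the lung cases had 539 informative fetuses, of which 279 (51.8%) were listed. Brain cases had 321 with 174 listed (54.2%), and kidney cases 381 with 179 listed (47.0%). An unlisted fetus had too few reads or too even a share for the lists. Which of its alleles was higher is not known. The base share was 91.8% over all cases (95% Clopper-Pearson interval 87.3 to 95.1), 54 of 57 cases in brain (94.7%, 85.4 to 98.9), 58 of 63 in kidney (92.1%, 82.4 to 97.4) and 89 of 99 in lung (89.9%, 82.2 to 95). The intervals cover counting error only, and SNPs of 1 gene share reads and haplotypes. None of the cases did neither, which could have happened only in the 99 cases listed in 3 or more fetuses. In those 99, 95 followed the base (96.0%, 90 to 98.9), and in the 120 cases with 2 fetuses, 106 did (88.3%, 81.2 to 93.5). All 28 cases with 5 or more fetuses (15, 9, 2 and 2 with 5, 6, 7 and 8 fetuses) followed the base. The reference base was the higher one in 113 of the 201 base cases and the alternative base in 88, so the direction was not toward 1 of them throughout.

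**Figure D1:**
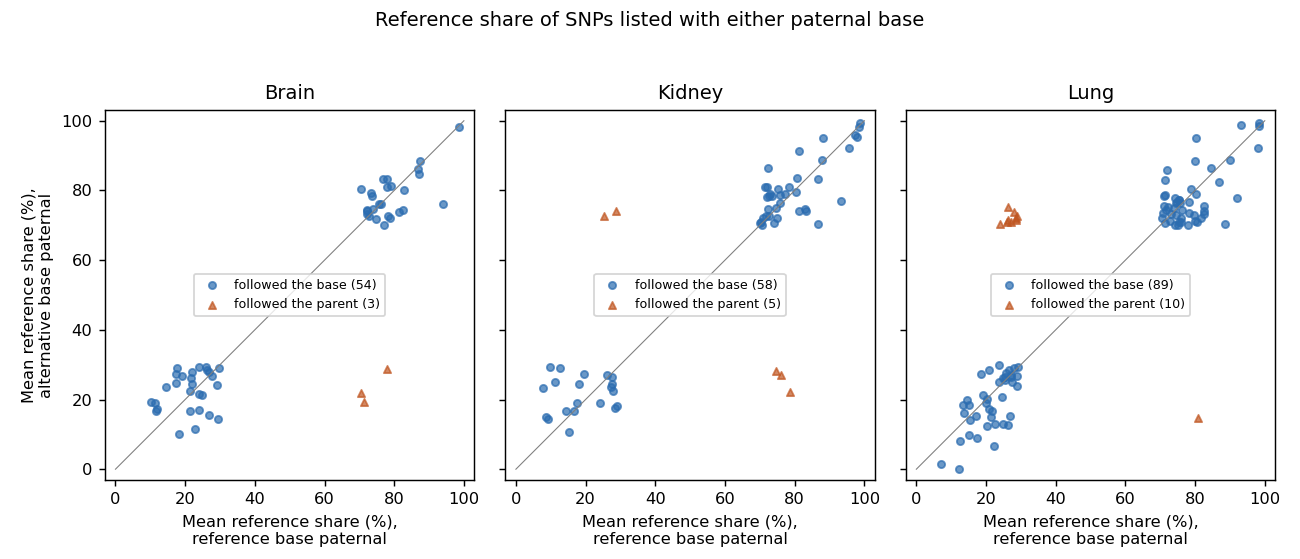
Each point is 1 SNP in 1 tissue, with the mean share of reads on the reference base (%) in fetuses with the reference base from the ram on the horizontal axis and in fetuses with the alternative base from the ram on the vertical axis. Blue circles (54, 58 and 89 cases) lie near the diagonal, where the same base was higher whichever parent gave it, and orange triangles (3, 5 and 10 cases) lie in the other 2 corners, where the same parent was higher. The empty middle comes from the 70% minimum of the lists.

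The shares of the 2 kinds of case differed in size. Over the 591 entries of the base cases, the share on the higher allele had a median of 78.4%, reached 100%, and was 90% or more in 14.9% of entries. Over the 41 entries of the parent cases it had a median of 73.0% and a maximum of 88.9%, and 87.8% of the entries were under 80%. The parent cases were also seen in fewer fetuses, at most 4 against at most 8. The 95% Wilson intervals of single shares had median widths of 23.9 and 29.4 percentage points (after rounding the counts to whole reads). That they exclude 50% in 585 of 591 and 41 of 41 entries is nearly fixed by the minimum depth and share of the lists.

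Among the largest imbalances was that at SPOCK2, which encodes testican-2, a secreted proteoglycan of the extracellular matrix (chromosome 25, position 27912911, C27912911G, where the first letter is the reference base and positions are those of the deposited lists). In brain the reference base took 98.4%, 97.7%, 97.1%, 98.8% and 98.4% of reads in 5 fetuses of ram 3, whose paternal base was the alternative one, and 98.8%, 100% and 97.1% in 3 fetuses of ram 4, whose paternal base was the reference one. The groups overlap. By the listed genotypes, the paternal allele was thus almost unread in the first 5 and almost the only one read in the other 3. Only DNA of the rams was sequenced, so here and at the other SNPs the genotypes were not checked in fetal or ewe DNA. The mean was 98.3% ± 0.97 in brain (SD, n = 8), 96.4% ± 2.70 in kidney (n = 6) and 98.4% ± 0.44 in lung (n = 8), and in brain and lung all 8 informative fetuses were listed. Read totals at this SNP ran from 23.5 to 487.5.

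A single base was as dominant at genes of the matrix and the cytoskeleton. At FBLN1, which encodes fibulin-1 of the extracellular matrix (chromosome 3, position 219758908, A219758908C), the reference base took 98.8% ± 0.52 of reads in kidney and 98.5% ± 0.67 in lung (SD, n = 5 each). The fetus of ram 1, with the alternative base from the ram, stood at 99.3% in kidney and 99.4% in lung, beside 98.2% to 99.4% and 97.6% to 98.6% in 4 fetuses of ram 3 with the reference base. At AIF1L, which encodes an actin-binding protein (chromosome 3, position 5497068, T5497068C), the kidney mean was 97.3% ± 1.64 (n = 5), with 95.4% in the fetus of ram 1 and 96.5% to 99.5% in the 4 of ram 3.

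DDX19A, an RNA helicase that acts in mRNA export (chromosome 14, position 1111077, G1111077T), had the reference base at 88.1% ± 6.26 in brain (n = 5), 92.8% ± 2.23 in kidney (n = 5) and 93.6% ± 3.00 in lung (n = 4). Its brain values were 96.0%, 91.5%, 79.2% and 86.5% in fetuses of ram 3 and 87.5% in the 1 fetus of ram 1, with the opposite paternal base. The values of the latter lay within the range of the others in brain and above it in kidney and lung, at 95.6% and 98.1%. CAMSAP2, which binds microtubule minus ends (chromosome 12, position 77491110, T77491110G), was at 86.8% ± 6.82 in brain (n = 6), where the 1 fetus with the alternative base from the ram was at 84.7% and the other 5 at 75.0% to 94.8%.

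In lung, RAB1B, a small GTPase of transport from the endoplasmic reticulum to the Golgi, was higher on the alternative base (chromosome 21, position 43523609, G43523609A). The reference base took 15.0%, 18.6% and 11.9% of its reads in fetuses that had it from the ram and 9.94% in the 1 that had it from the ewe. At IFIT5, an interferon-induced RNA-binding protein (chromosome 22, position 10800804, A10800804C), the reference base took 87.4% ± 7.91 in kidney and 85.6% ± 3.37 in lung (n = 5 each). All 5 informative fetuses were listed in both tissues, 3 with the alternative and 2 with the reference base from the ram. HEYL, a Notch-responsive transcriptional repressor (chromosome 1, position 14017734, T14017734C), was at 95.9%, 84.2% and 88.6% in 3 lung libraries. MRPL17, of the mitochondrial ribosome (chromosome 15, position 45695912, A45695912C), was at 82.1% ± 5.31 in 4 brains. At LOC101105348, with no gene name in the lists (chromosome 13, position 42004904, G42004904T), the reference base took 88.6% and 95.6% in 2 lungs of fetuses with it from ram 4 and 72.0% and 83.5% in 2 with the other base from ram 1, without overlap.

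RPS3, which encodes a protein of the small ribosomal subunit, was listed in more libraries than most (chromosome 15, position 52694597, G52694597A; named after its values were seen). Its reference share was 77.5% ± 5.37 in brain (n = 7), 78.7% ± 6.68 in kidney (n = 6) and 79.1% ± 6.43 in lung (n = 6). The reference base was higher in every listed fetus, 2 with it from the ram in each tissue and the rest with it from the ewe. Ribosomal protein genes have processed copies elsewhere in mammalian genomes, so how reads of RPS3 were shared out is uncertain.

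**Figure D2:**
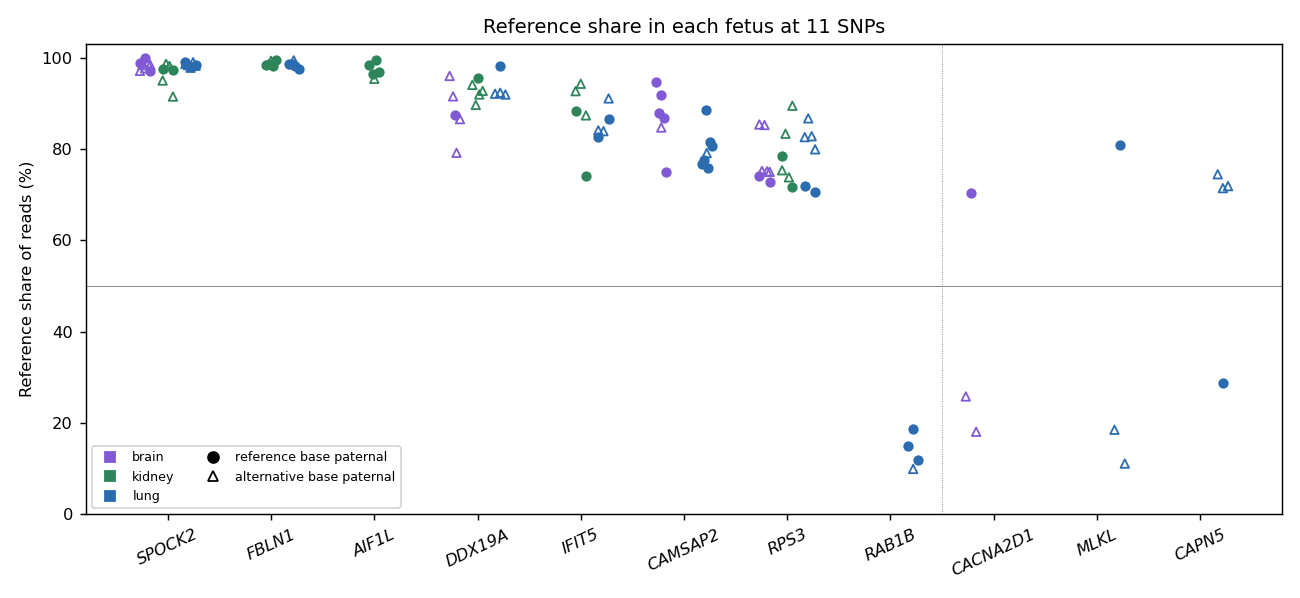
Reference share of reads (%) in each listed fetus at 1 SNP of 11 genes, by tissue (colour) and by the base the ram gave (filled circle for the reference, open triangle for the alternative). Left of the dotted line the 2 symbols lie on the same side of 50%, as at SPOCK2 with 91.5% to 100%. Right of it, at CACNA2D1, MLKL and CAPN5, they lie on opposite sides.

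A limma fit over all listed SNPs of a tissue with at least 3 fetuses tested the mean natural log of reference over alternative reads against 0. At an adjusted p under 0.05 it called 37 of the 38 members tested for brain, 34 of 34 for kidney and 50 of 54 for lung, beside 99%, 95.7% and 96.1% of all SNPs tested. Since the lists hold no even SNPs, such a call says little more than that the same base was higher in each fetus, and the share is near the background. For members and for all SNPs, the median absolute log ratios were 1.26 and 1.57 (brain), 1.34 and 1.4 (kidney) and 1.33 and 1.32 (lung). The same test on paternal over maternal reads called 10 of 38, 7 of 34 and 15 of 54 members, beside 94.9%, 92.6% and 92.9% of all SNPs. Where a SNP was listed with 1 paternal base only, as most SNPs tested were, both tests use the same values apart from the sign. Among members listed with both paternal bases, the parent test called 2 of 30 (brain), 0 of 27 (kidney) and 4 of 42 (lung), and the base test 29, 27 and 39. Littermates were counted separately here, and with littermates averaged the parent test called 5 of 29 members in brain. Leaving out 1 fetus at a time took the parent count in brain down to 5 of 27 without control fetus 5. It was 6 of 31 without control fetus 7, and in kidney 4 of 27 without control fetus 2.

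A model with a base term and a parent term was fitted at the SNPs listed with both paternal bases in at least 3 fetuses. Since the lists hold no even SNPs, a base call here also says little more than the direction count. The members called for the base were those whose cases followed the base. The base term passed in 29 of 30 brain members, 27 of 27 kidney members and 39 of 42 lung members, beside 91.7%, 91.2% and 85.2% of the 36, 34 and 61 SNPs fitted, which were mostly these members. The base term was 4.02 ± 0.12 (SE, natural log) for SPOCK2 in brain, 4.15 ± 0.23 for FBLN1 in kidney and 4.04 ± 0.10 for SPOCK2 in lung, the largest of each tissue. The parent term passed in 1 of 30 members in brain (background 8.33%), 0 of 27 in kidney (2.94%) and 0 of 42 in lung (0%), and at an unadjusted p under 0.05 in 2, 2 and 6. Fitted on autosomal SNPs alone, an alternative chosen after seeing the data, the parent term passed in 5 of 42 members in lung: the SNPs of CAPN5 at 54566924 and 54567722, MLKL, DDX19A and RPS3, with adjusted p between 0.0196 and 0.0454. At DDX19A and RPS3 that term was smaller than the base term, and the same base was higher in every listed fetus. With at least 2 fetuses of each paternal base, the parent term of LOC101105348 passed in lung (0.59, adjusted p = 0.0173), and without restricted fetus 4 that of SPOCK2 passed in brain (0.47, adjusted p = 0.00635).

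The 1 member called for the parent lay in CACNA2D1, which encodes an auxiliary subunit of voltage-gated calcium channels (chromosome 4, position 38631283, T38631283C, brain). The reference base took 25.8% of 31 reads (95% Wilson interval 13.7 to 43.2) and 18.1% of 41.5 reads (9.98 to 33.3) in control fetuses 1 and 5, which had the alternative base from ram 3. It took 70.4% of 27 reads (51.5 to 84.1) in restricted fetus 4, which had the reference base from ram 4. The paternal allele was thus higher in each of the 3, with a parent term of 1.03 ± 0.20 (adjusted p = 3.18e-05, limma) and a base term of -0.20 ± 0.20. The brain fit gave every SNP the same spread, so this SE depends on the numbers of fetuses alone and is 0.20 for each brain SNP with 1 fetus against 2. The p-value thus rests on the spread of other SNPs, with 2 fetuses of 1 litter on one side and 1 fetus on the other. Of 6 informative fetuses 3 were listed. Without control fetus 1, control fetus 5 or restricted fetus 4 the SNP could not be fitted, nor with littermates averaged or with at least 30 reads.

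All 18 parent cases, in 16 genes, are as follows. In brain the paternal allele was higher at CACNA2D1, at ZNF365 (80.8% and 71.2% paternal) and at ZBTB8OS (71.1% and 78.0%), whose product works with the tRNA ligase. In kidney it was higher at PKHD1, the fibrocystin gene of polycystic kidney disease (74.7% and 71.8%), at F13A1, coagulation factor XIII A (73.0% and 76.1%), and at the spectrin gene SPTBN5 (78.6% and 77.8%). The maternal allele was higher there at SCPEP1, a serine carboxypeptidase (25.3% and 27.4% paternal), and at 1 SNP of SERPINB1, an inhibitor of neutrophil elastase. PKHD1 and ZNF365 each also had 1 both-way SNP that followed the base. That of PKHD1, also in kidney (T24196731C), had the reference base at 24.7% ± 4.41 of reads (SD, n = 3).

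In lung the maternal allele was higher in 9 of 10 parent cases. The paternal shares were 28.6% and 28.0% at NT5M, a mitochondrial nucleotidase, 29.6% and 24% at PCTP, a phosphatidylcholine transfer protein, and 28.6% in both fetuses at ELK4, an ETS transcription factor. They were 26.2% and 27.9% at MPHOSPH6, of the RNA exosome, 29.1% and 27.3% at APAF1, the scaffold of the apoptosome, and 25.9% and 29.2% at SRD5A3, of dolichol synthesis. Each of these rests on 2 fetuses, and their values lie within 10 points of the 70% minimum of the lists.

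Restricted fetus 1, sired by ram 1, was listed in 11 of the 18 parent cases and in 57 of the 201 base cases, the next highest numbers for the parent being 6 and 5. Without it 73 of 75 lung cases followed the base (97.3%), beside 89 of 99 with it (89.9%). Over all its member entries the paternal allele was higher in 38.7% in brain, 38.4% in kidney and 35% in lung. Over the entries of all fetuses it was higher in 50.6%, 49.1% and 50.4%. The list for cell death and protease inhibitors held 36 of the SNPs, in CAPN5, CAST, MLKL and SERPINB1, and 12 were listed both ways, 7 following the base and 5 the parent. Over all members the counts were 155 and 18 of 173. The 5 lay in CAPN5, SERPINB1 and MLKL, and those of CAPN5 and SERPINB1 all included restricted fetus 1. They are thus not separate observations, the list was chosen with earlier results known, and the difference was not tested.

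CAPN5, a calpain protease, had both of its both-way SNPs following the parent. At position 54566924 of chromosome 15 (T54566924G) the reference base took 72.5% and 78.0% of reads in overfed fetuses 3 and 4, with the alternative base from ram 4, and 26.4% in restricted fetus 1, with the reference base from ram 1. At 54567722 (G54567722A) it took 74.5%, 71.4% and 71.9% in control fetuses 2, 3 and 4 of ram 4, and 28.8% in restricted fetus 1. The parent terms were -1.03 ± 0.13 and -0.90 ± 0.09, maternal higher, with adjusted p of 0.0909 and 0.0563 (limma). That of the second was between 0.0222 and 0.0498 without control fetus 1, control fetus 5, overfed fetus 2, 3 or 4, or restricted fetus 3, and neither could be fitted without restricted fetus 1. MLKL, the executor of necroptosis (chromosome 14, position 1492429, T1492429C), showed the paternal allele higher: the reference base took 18.5% and 11.1% in control fetuses 5 and 7, listed with 1 ewe, and 81.0% in restricted fetus 2. Its parent term was 1.52 ± 0.18 with an adjusted p of 0.0909, and it could not be fitted without any 1 of the 3 fetuses.

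Other SNPs of the same gene in the same library lay on the same parental side in 67 of 70 entries beside the parent cases, and 14 of the 18 cases had such a neighbour. The exceptions were 2 entries of PKHD1 and 1 of SERPINB1. SNPs of 1 gene share haplotypes and reads, and the share was not tested. By a different measure, several SNPs of a gene in a library lay all on 1 side in 89.1% (members) and 87.4% (one-way SNPs) of genes and libraries. CACNA2D1, NT5M, ELK4 and SRD5A3 had none.

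Pairs of fetuses listed at 1 SNP and tissue give a second view. With different paternal bases, the same base was higher in 441 of 464 pairs (95%). With the same paternal base from different rams it was higher in 96 of 102 (94.1%). From the same ram but different ewes it was higher in 316 of 327 (96.6%), and from the same ram and ewe in 99.2% of 119. At one-way SNPs the last 3 shares were 97.4%, 97.5% and 98.3% of 7090, 3718 and 981 pairs. Pairs share fetuses and SNPs, and the shares were not tested.

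**Figure D3:**
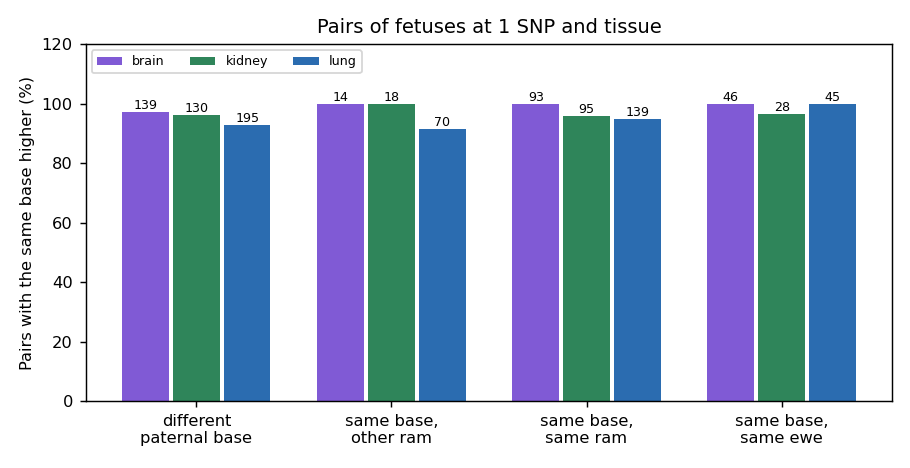
Percent of pairs of fetuses, listed at the same SNP in the same tissue, in which the same base was higher, by whether the pair had the same paternal base, ram or ewe. Pairs of the same ewe are left out of the same-ram bars. Bars start at 0, and the number over each bar is its number of pairs. In lung the bar is at 92.8% for pairs with different paternal bases and at 91.4% for pairs with the same base from different rams.

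In 2 tissues of 1 fetus the higher base was nearly always the same, as at one-way SNPs. It was the same in 100 of 101 SNPs listed in the brain and kidney of a fetus, 109 of 110 in brain and lung, and 152 of 158 in kidney and lung (99.0%, 99.1% and 96.2%), beside 98.2%, 97.8% and 98.8% at one-way SNPs. The opposite entries lay in NCBP1, RGS5, MPHOSPH6, BTBD9, PAWR, OCIAD2 and 2 adjacent SNPs of MAP2. In MPHOSPH6, restricted fetus 1 had the reference base at 71.4% in kidney and 27.9% in lung at the SNP that followed the parent in lung. All 36 SNPs with a both-way case in more than 1 tissue (26 in 2 tissues and 10 in all 3) had the same base higher in each.

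Differences in the size of the imbalance between tissues were few. Kidney and brain differed in 2 of 16 members tested (limma, adjusted p under 0.05), beside 20.2% of all SNPs tested, lung and brain in 0 of 9 (29.4%), and lung and kidney in 0 of 15 (1.23%). At an unadjusted p under 0.05 the counts were 2, 1 and 3, beside 123 of 406, 174 of 422 and 77 of 649 SNPs tested. SPOCK2 was lower in kidney than in brain by 0.77 ± 0.27 (natural log of reference over alternative reads, means 3.18 and 3.95, adjusted p = 0.0443). OCIAD2, on chromosome 6 at 67414510 (C67414510T), was higher in kidney by 0.52 ± 0.16 (means 1.46 and 0.94, adjusted p = 0.0322). Its reference shares were 73.5%, 73.3%, 72.4% and 70.7% in 4 brains and 78.5% to 85.7% in 6 kidneys, and the ranges did not overlap. With the fetus as a block, which pairs the tissues of an animal, SPOCK2 remained (-0.94, adjusted p = 0.0463), while OCIAD2 was about as large but did not pass (0.44 ± 0.20, adjusted p = 0.188).

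Neither call held with every fetus left out in turn. SPOCK2 lost its call without control fetus 2, 3, 4 or 5, overfed fetus 2 or restricted fetus 3 (adjusted p 0.0502 to 0.139), and OCIAD2 without control fetus 3, 5 or 7, overfed fetus 2 or restricted fetus 4 (0.0535 to 0.104). Read totals at SPOCK2 were 32.0 to 487.5 in brain and 23.5 to 154.5 in kidney, and with at least 30 reads per entry its difference was -0.56 (adjusted p = 0.167). Between lung and brain, DDX19A passed without control fetus 1 and CAMSAP2 without restricted fetus 2 (adjusted p = 0.0427 and 0.0203). Between lung and kidney, SPOCK2 passed without control fetus 4 (adjusted p = 0.0493).

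Genes with several SNPs show whether the SNPs of a gene lay on the same parental side, though such SNPs share reads and haplotypes. Where more than 1 member SNP of a gene was listed in a library, all lay on 1 parental side in 328 of 368 such genes and libraries (89.1%), beside 2445 of 2797 (87.4%) for one-way SNPs. The largest was LOC105607506, a locus with no gene name in the lists (chromosome 2, positions 47025028 to 47032189), with 22 SNPs, 13 of them listed both ways and all 23 of its cases following the base. In the 12 libraries with several of its SNPs they lay on 1 side. The paternal allele was higher in 43 of 43 entries from 6 fetuses of ram 4, at 70.6% to 96.6%, and lower in 39 of 39 entries from 3 fetuses of ram 3, at 3.92% to 29.7%. The reference base was higher in 1 of its 82 entries.

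ALAD, which encodes an enzyme of haem synthesis (chromosome 2, positions 10302386 to 10309913), had 17 SNPs, 11 of them listed both ways in 12 cases, and all followed the base. The paternal share was 71.4% to 89.6% in 20 entries from 3 fetuses of ram 4, 70.9% to 80.3% in 9 entries of the fetus of ram 1, and 9.09% to 29.0% in 19 entries of the fetus of ram 2. The higher base was the reference in 22 of the 48 entries. Fetuses of rams 1 and 4 lay on the same side with overlapping ranges, and the fetus of ram 2 on the other.

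SERPINB1 (chromosome 20, positions 49518401 to 49521062) had 15 SNPs, 9 of them listed both ways, with 11 cases following the base and 2 the parent. In the fetus of ram 1 the maternal allele was higher in all 28 entries, and in that of ram 2 the paternal allele was higher in all 13. In 4 fetuses of ram 4 the paternal allele was higher in 11 of 15 entries, from 24.4% to 98.5%. At 49520517 (G49520517T) the reference base took 94.2% ± 4.61 in lung (SD, n = 6), at 98.9% in the fetus with the alternative base from the ram and 87.3% to 98.5% in the others. At 49521032 in kidney and 49521062 in lung, both following the parent, the reference base took 28.8% and 26.3% in control fetus 4 and 74.1% and 71.5% in restricted fetus 1.

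**Figure D4:**
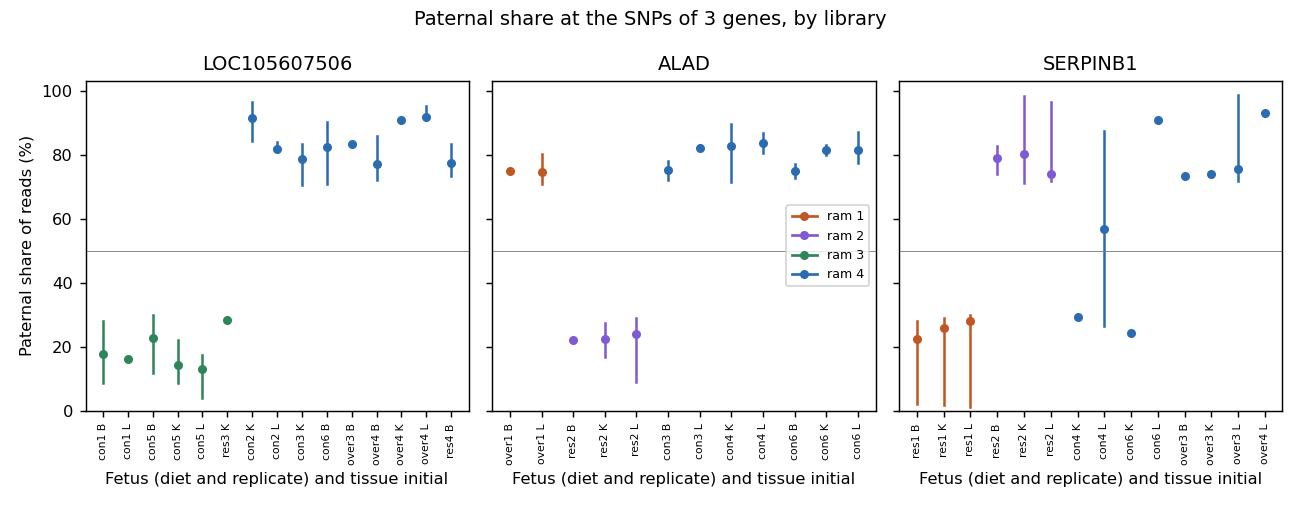
Share of reads from the paternal allele (%) at the SNPs of 3 genes in each library, as the median (point) and the range over SNPs (line), coloured by ram. At LOC105607506 the libraries of ram 3 lie under 30% and those of ram 4 over 70%, at ALAD those of ram 2 lie apart from those of rams 1 and 4, and at SERPINB1 1 library of ram 4 spans both sides.

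Of the remaining genes with at least 3 SNPs listed both ways, all cases followed the base: 4 in AKR1E2, an aldo-keto reductase, 3 in DQA, an MHC class II chain, 5 in MYLIP, the ubiquitin ligase of the LDL receptor, 4 in OCIAD2, 7 in RHBDD2 and 3 in TEAD1, a transcription factor of the Hippo pathway. At AKR1E2 the paternal allele was higher in 18 of 18 entries from 3 fetuses of ram 4 and lower in all 5 from those of rams 1 and 3. OCIAD2 was the least uniform, with its SNPs on 1 parental side in 5 of the 10 libraries with several. DQA belongs to a multigene family and AKR1E2 to a family of like genes, so their read assignment is uncertain.

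Few genes reported as imprinted in other mammals held a member SNP: 0 of 36 listed as paternally and 2 of 41 listed as maternally expressed. Among other lists it was 2 of 76 cytosolic ribosomal, 3 of 73 mitochondrial and 3 of 77 splicing genes. It was 4 of 50 for antigen presentation and interferon response, 4 of 44 for cell death and protease inhibitors, and 9 of 70 for matrix and adhesion. The share over all genes was not computed, and these differences were not tested. In the list for maternal expression, GATM, an enzyme of creatine synthesis, held 3 SNPs and ZFAT, a zinc finger gene, held 1. The parent given for these genes is that of the list alone and was not checked, for ZFAT in particular. Their 6 entries all had the maternal allele higher, with 25% to 29.3% paternal reads in fetuses of ram 4, and none was listed with both paternal bases, so base and parent cannot be told apart there.

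The remaining lists held few genes. For antigen presentation and interferon response, 26 SNPs lay in ERAP1, IFIT5, TAP1 and TAP2, and both that were listed both ways followed the base. For extracellular matrix and adhesion, 17 SNPs lay in 9 genes, and all 4 listed both ways followed the base, FBLN1 among them. The reference base was higher in 83.3% of the 48 entries of the interferon list and 60.6% of the 33 of the matrix list, beside 51.9% of all 2644. The ribosomal and mitochondrial lists had 1 both-way SNP each, both following the base, and the splicing list (ADAR, SF3B3 and SON) none. The tissue marker lists held MAP2 for brain, GATM and SLC12A3 for kidney and CDH5 for endothelium, with no SNP listed both ways, and none for lung, blood or muscle.

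The reference base was higher in 51.1% of entries in brain, 53.2% in kidney and 51.5% in lung, and the ram gave the reference base in 46.5%, 48.0% and 46.1% of them. The paternal allele was higher in 50.6%, 49.1% and 50.4%. At one-way SNPs the reference base was higher in 50%, 48.6% and 49.3% of entries, although the ram gave it in 70.2%, 70.1% and 71.3%. Within fetuses the reference-side share exceeded that of one-way SNPs by 1.12 points ± 10.3 (SD) in brain, 5.02 ± 11.8 in kidney and 1.5 ± 7.03 in lung (higher in 8, 10 and 8 of 15 fetuses). The exact two-sided sign-flip permutation test gave p = 0.674, 0.123 and 0.420, and 0.674, 0.370 and 0.630 adjusted over the 3 tissues. With at least 30 reads per entry the difference in brain was 8.56 points (higher in 12 of 15 fetuses, adjusted p = 0.0315, exact permutation). Fetuses were the units in these tests, though some share a ewe and the same SNPs recur between fetuses. They are thus not fully independent. Just inside the limit of the rule, SNPs informative in 9 fetuses had the reference base higher in 66.5% of 218 entries and 12 of 14 cases following the base. Just outside it, those informative in 10 had 74.2% of 190 entries and 19 of 22 cases.

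With the ewe as the unit, no difference in direction between diets passed the test, which could hardly pass: 4 against 4 ewes cannot give a p under 0.0286, and a lone difference at that p is 0.171 when adjusted over the 6 contrasts. In lung the reference-side share was 47.3% ± 4.23 over 4 control ewes, 51.8% ± 5.89 over 4 restricted and 57.6% ± 5.02 over 4 overfed ewes (SD). The overfed values ran from 52.6% to 64.3% and overlapped the control fetuses, at 39.2% to 52.9%. The overfed difference of 10.2 points had p = 0.0571 and 0.343 adjusted, by an exact two-sided permutation test. Taking each fetus on its own, which counts littermates separately, it was 10.8 points with an adjusted p of 0.0364 (exact permutation), past the threshold. The control fetuses all came from rams 3 and 4, while rams 1 and 2 sired only overfed or restricted fetuses. Diet and ram are thus partly confounded, and differences due to either cannot be fully told apart. The other differences were -0.38 points in brain and 10.6 in kidney for overfed, and -1.70, 4.47 and 4.52 in brain, kidney and lung for restricted ewes, with adjusted p of 0.429 or more. The brain differences changed sign with single fetuses left out, from -3.70 to 3.89 for overfed and from -4.73 to 0.70 for restricted ewes.

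Single SNPs could be compared between diets in few members: 3, 0 and 4 for restricted and 3, 2 and 2 for overfed ewes in brain, kidney and lung. By limma 0 were called, beside 0% of all SNPs tested in each contrast. At an unadjusted p under 0.05 there were 0 members. Over all SNPs tested, those numbers were 9 of 165, 3 of 263 and 16 of 347 for restricted ewes. For overfed ewes they were 17 of 222, 10 of 195 and 15 of 410. SPOCK2 in brain had means of 4.38 in control and 3.45 in restricted ewes (natural log, unadjusted p = 0.0761, adjusted p = 0.601). RPS3 and RHBDD2 in brain and kidney, and DPY19L3 in lung, differed by between -0.13 and 0.20 in overfed ewes.

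**Figure D5:**
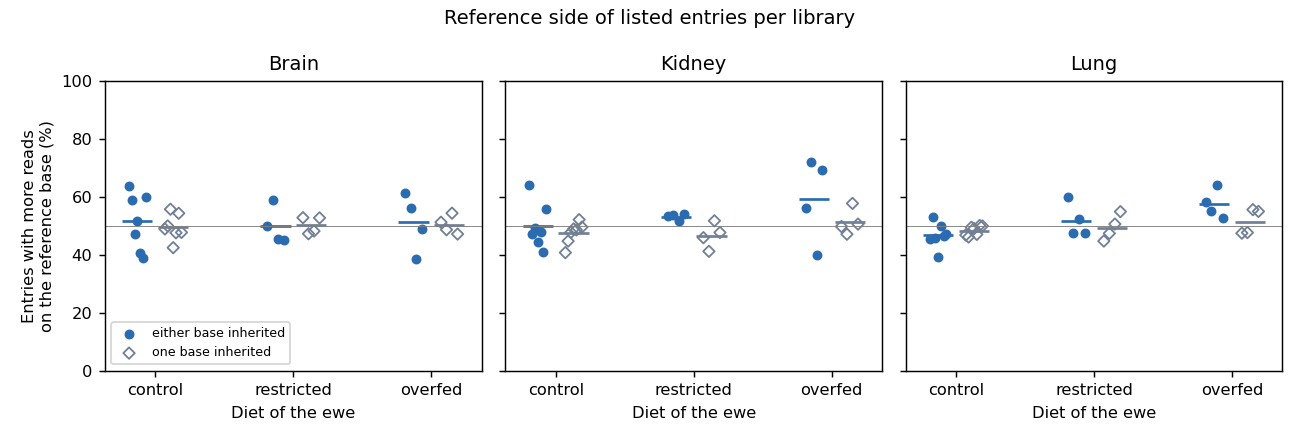
Percent of listed entries with more reads on the reference base in each fetus, by tissue and diet, for SNPs inherited either way (filled circles) and one way (open diamonds), with lines at the means of the fetuses. The 4 overfed lungs lie between 52.6% and 64.3% and the 7 control lungs between 39.2% and 52.9%.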

How the data were processed

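RNA of 45 fetal samples and DNA of 4 rams were sequenced. Libraries of poly(A) RNA were sequenced in several runs, which the labels do not tie to samples, so runs and groups were not compared. The submitters' processing notes name Trimmomatic 0.33, HISAT2 2.0.5, Picard and SAMtools, with no role. The genome build: not given in the sources used here. Values are estimated counts, deposited by the authors as reads of the paternal and maternal base averaged over 2 alignments per the series' design text. They are filtered on depth and imbalance, as the values show, and 65.3% of entries hold a value that is not whole. Chromosome numbers come from the order of the sequence names; 99.7% of 13220 gene symbols lie on the same chromosome in the RefSeq table. Numbers of reads (0.5 added to each allele) were turned into natural logs and fitted with limma 3.58.1 in R 4.3.3, with Benjamini-Hochberg adjustment over all SNPs tested and a threshold of 0.05, since estimated counts truncated at a share do not suit a count model. At least 3 fetuses were required, and 2 ewes per diet. The fits were tested on simulated data. Single values were compared by exact permutation in scipy 1.17.1. Fetuses were the units for SNPs and ewes for diets. Tissues of 1 number come from the same fetus, which pairs them.

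SNPs were named when among the 8 largest base terms of a tissue, when called for the parent or following it in every listed fetus, or when in a gene with 3 or more SNPs listed both ways. The SNPs and gene lists were chosen with earlier results of these data known. Alternatives were 1 read added, at least 30 reads, at least 5 fetuses, at least 2 of each paternal base, littermates averaged or apart, at least 80% on 1 allele, 1 SNP per gene, the fetus as a block, each fetus left out, and autosomal SNPs only. The second version of each ram's genotype file, with the allele columns exchanged, was not used. Sequence around the SNPs and their place in exons were not analysed here.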

Additional observations from a re-analysis of the deposited data

Results flagged for a closer look

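Restricted fetus 4 had 1.03% of its informative SNPs of this kind listed in kidney, apart from the other 3 restricted kidneys at 1.90% to 2.07%. The whole list of that library was small, with 8440 reads against 36430.5 to 53869.5 in the other 3, and its share of one-way SNPs was low too, at 0.68% against 2.50% to 2.92%. Of 23 groups of samples examined for such a gap it was the only one, and chance gives about 1 in 20. The imbalance of SPOCK2 differed between kidney and brain by -0.77 (natural log of reference over alternative reads), and that of OCIAD2 by 0.52, both past the threshold in the test of the difference between tissues.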

How the results depend on the processing

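No result that passed its test changed direction under an alternative. The brain differences between diets, which did not pass, changed sign with single fetuses left out (-3.70 to 3.89 points for overfed, -4.73 to 0.70 for restricted). Members called for the base numbered 17 of 17 tested in brain and 27 of 28 in lung with at least 30 reads. All SNPs gave 409 of 411 and 871 of 907. With at least 5 fetuses the members numbered 10 of 10, 9 of 9 and 12 of 12 in brain, kidney and lung. All SNPs gave 322 of 322, 379 of 386 and 612 of 618. Members called for the parent numbered 6 of 17 in brain and 7 of 28 in lung with at least 30 reads (all SNPs 397 of 411 and 845 of 907). With at least 5 fetuses they numbered 2 of 10, 1 of 9 and 2 of 12 (all SNPs 313 of 322, 367 of 386 and 601 of 618). With littermates averaged they were 5 of 29 in brain (all SNPs 565 of 596). In the model with both terms, base calls were 12 of 12 members in brain and 21 of 21 in lung with at least 30 reads. All SNPs gave 14 of 14 and 33 of 39. With at least 2 fetuses of each paternal base they were 9 of 9, 7 of 7 and 5 of 5 members. All SNPs gave 10 of 10, 8 of 8 and 6 of 6. The lower counts thus go with fewer members that could be fitted. Parent calls in brain were 0 of 12 and 0 of 9 members under those 2 settings (all SNPs 0 of 14 and 0 of 10). They were 0 of 25 with littermates averaged (all SNPs 1 of 30), and fewer SNPs could be fitted under all 3. In lung they were 1 of 5 with 2 fetuses of each base and 5 of 42 on autosomal SNPs only (all SNPs 1 of 6 and 5 of 48). For the latter the cause was not tested. The kidney and brain contrast had 1 call of 8 members with at least 30 reads, of 13 with littermates averaged and of 10 with the replicate block (the fetus). All SNPs gave 65 of 244, 73 of 361 and 33 of 288. The block changed no other call. The lung and kidney contrast had 1 of 15 with 1 read added (all SNPs 13 of 649). The share of cases that followed the base was 100% in brain and 95.8% in lung with at least 30 reads, 100% in each tissue with 2 fetuses of each base, and 100%, 100% and 95.8% with at least 80% on 1 allele. The reference-side difference from one-way SNPs in brain was 8.56 points with at least 30 reads, and the overfed lung difference 10.8 points with each fetus on its own.

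Leaving out 1 fetus at a time, parent calls ranged from 5 to 12 in brain and 4 to 10 in kidney, and from 0 to 1 in brain and in lung in the model with both terms. Tissue calls ranged from 0 to 2 for kidney and brain, and from 0 to 1 for lung against brain and against kidney. The lung share that followed the base ranged from 88.0% to 97.3%. Entries of about 30 reads, the minimum of 70% on 1 allele and 1 or 2 fetuses per SNP limit what could be compared.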
